A study of Homo sapiens with 8 samples.

Results

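Proteins that bind the 3′UTR of mRNAs act on the same stretch of a transcript as miRNAs do, and 9 genes that code for such proteins are described here: ZFP36, ZFP36L1, ZFP36L2, PUM2, CPEB2, CPEB4, ELAVL1, MSI2 and LIN28B. The genes were chosen with earlier results of these data known. Their probes were then taken by name alone, as the array probes whose RefSeq transcript maps to one of these genes, a step that uses no measured value. The arrays name 16557 genes in this way, and these 9 had 18 of the 41000 probes. After the filters described below, 13 of the 18 probes, from 7 of the 9 genes, were among the 15529 probes kept, and each of the 13 was detected in all 8 channels. Not kept were both CPEB2 probes, 1 of the 2 CPEB4 probes and both LIN28B probes.

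The arrays compare RNA bound to Ago2, the protein that holds a miRNA on its target transcript, with the RNA of the whole lysate. ST486 is an established Burkitt lymphoma line, and thus of malignant B cells. The cells had been transduced either with the empty vector MXW-PGK-IRES-GFP (EV-ST486, here EV cells) or with the same vector carrying miR-155 (miR-155-ST486, here miR-155 cells), and in both cases GFP+ cells were sorted, so vector, GFP and sorting are common to both groups, which by their labels differ in the ectopic miR-155. From each, RNA of the total cell lysate (T) and RNA immunoprecipitated with an antibody against Ago2 (IP) were taken, and each of these 4 RNA samples was labelled once with each dye, Cy3 and Cy5. An array takes the IP and the total RNA of one kind of cell, and with the dyes both ways round this makes 4 two-colour arrays. Each condition has n = 1 RNA sample from 1 cell line, and its labellings are technical repeats. No test was therefore run, and labellings differ from each other only by technical effects, those of the dye, the labelling and the hybridization. The IP with a control antibody was not analysed here, so a ratio of IP to total RNA includes whatever the procedure retained without Ago2.

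The 9 proteins differ in what they do to a transcript. ZFP36 (tristetraprolin) and its relatives ZFP36L1 and ZFP36L2 are zinc finger proteins that bind AU-rich elements and recruit the CCR4-NOT deadenylase, which shortens the poly(A) tail and leads to decay, and in lymphocytes they limit cytokine mRNAs and proliferation. ELAVL1 (HuR) binds U-rich and AU-rich elements and mostly stabilizes its targets, PUM2 is a Pumilio repressor, CPEB2 and CPEB4 bind cytoplasmic polyadenylation elements, MSI2 is a Musashi protein of haematopoietic stem cells and leukaemias, and LIN28B blocks the maturation of let-7 miRNAs. miR-155 is a miRNA of activated B cells that represses transcripts through pairing of its seed with their 3′UTR. The main mature form of the overexpressed miRNA is shown because its seed is what a bound transcript would pair with. It is taken from RefSeq (GRCh38.p14, chr21:25573983-25574006, plus strand), and the capitals mark bases 2 to 8, the seed:
hsa-miR-155-5p: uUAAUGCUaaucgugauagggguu

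The arrays measure mRNAs and not the mature miRNA. The 1 probe of MIR155HG, the host transcript of miR-155, was detected in 3 of the 8 channels, and where it lies relative to the insert of the vector is not given in the sources used here, so it does not check the labels. With this few arrays every value has limited precision. Between 14094 and 22161 probes were detected per channel and 0 spots were saturated. Across the 15529 kept probes the log2 IP/T ratios of the dye orientations correlated with r = 0.82 in EV cells and r = 0.91 in miR-155 cells, and the log2 ratios between the vectors with r = 0.32. These are descriptions across probes that share arrays. There are 2 slides, of which 0 hold both vectors, so vector and slide cannot be told apart, whereas IP and total RNA of a vector share their arrays. Of the B-cell markers with a probe, 6 of 7 genes were detected in all 4 total labellings, among them MS4A1, CD79A and CD79B, while PAX5 was detected in 0, and the summed signal of the list lay between 25134 and 28385 in both vectors. The T-cell markers were detected for 0 of 4 genes, with CD3D, CD3E, CD3G and CD2 not well above background, and their summed signal lay between 98.5 and 132. Of the monocyte markers 1 of 3 genes (CD14), of the erythroid markers 2 of 3 (HBB and HBA1) and of the fibroblast markers 0 of 2 were detected in any total labelling, each of them in fewer than all 4, with summed signals of at most 126, 236 and 50.2.

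Signals are given in arbitrary units after quantile normalization over the 8 channels. They can be compared between channels for 1 probe but not between probes. The IP/T ratio is the IP signal over the total signal, taken on the mean log2 signals of the labellings, and a probe was called Ago2-IP-enriched at a ratio of at least 2. Dividing the IP/T ratio of miR-155 cells by that of EV cells gives the miR-155/EV ratio, with a threshold of 2 as well. Values of the single dye orientations are given as the array with IP RNA in Cy3 first and the array with IP RNA in Cy5 second. Where a gene has several probes they are numbered from the highest to the lowest mean IP/T ratio.

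**Figure D1:**
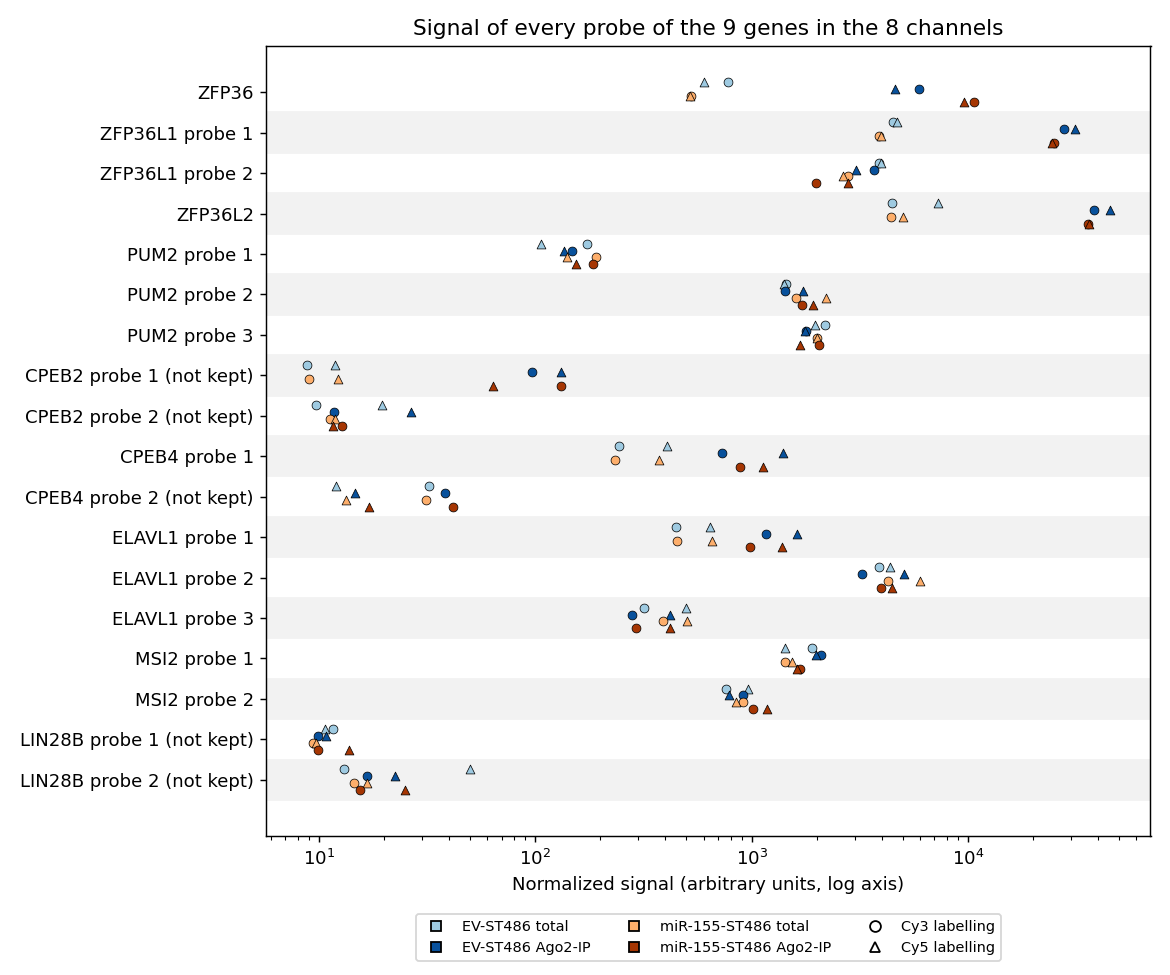
Normalized signal of each of the 18 probes (rows) in arbitrary units on a log axis, with circles for Cy3 and triangles for Cy5 labellings, light symbols for total and dark symbols for Ago2-IP RNA, and blue for EV cells and orange for miR-155 cells. The dark symbols stand to the right of the light ones for ZFP36, ZFP36L1 probe 1 and ZFP36L2 in both vectors, and the 5 probes that were not kept lie near the low end of the axis.

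ZFP36, ZFP36L1 probe 1 and ZFP36L2 had the 3 highest IP/T ratios of the 13 kept probes in both vectors, and the same 5 probes passed the threshold in both. The other ZFP36L1 probe was not enriched, with an IP/T ratio of 0.86 in both vectors. Nor were ELAVL1 probes 2 and 3, at 0.99 and 0.86 in EV cells and 0.83 and 0.79 in miR-155 cells. In EV cells 5 of the 13 probes reached an IP/T ratio of 2, against 12.1% of all 15529 kept probes, and in miR-155 cells 5 of 13 probes, against 12.2%. These were ZFP36, ZFP36L1 probe 1, ZFP36L2, CPEB4 probe 1 and ELAVL1 probe 1. In EV cells 3 of them, ZFP36, ZFP36L1 probe 1 and ZFP36L2, reached 2 in each dye orientation, against 9.39% of all kept probes. In miR-155 cells 4 did so, the same 3 and CPEB4 probe 1, against 10.4%. An IP/T ratio of 0.5 or less was found for 0 of the 13 probes in either vector, while 10% of all kept probes in EV cells and 9.83% in miR-155 cells had one. The median log2 IP/T ratio of the 13 probes was 0.13 in EV cells and 0.16 in miR-155 cells, and that of all kept probes was -0.15 and -0.18. Probes of 1 gene read RNA of the same locus and are not independent, and the shares describe these arrays only. Since the genes were chosen with earlier results of these data known, the shares are no unbiased comparison with all kept probes.

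ZFP36, which promotes decay of cytokine and growth-related mRNAs, was the only member with a kept probe whose IP/T ratio differed at least 2-fold between the vectors. Its probe (A_23_P39237, NM_003407) gave total signals of 780.4 in Cy3 and 602 in Cy5 in EV cells and of 523 and 517 in miR-155 cells. Its Ago2-IP signals were 5907 and 4611 in EV cells and 10615 and 9593 in miR-155 cells. The IP signals thus lay far above the total signals in both vectors. In each fraction the labellings of EV cells did not overlap those of miR-155 cells. Both ZFP36L1 probes separated the vectors in each fraction as well. For ZFP36 the total signals were lower and the IP signals higher with miR-155, while for the ZFP36L1 probes both were lower. These labellings are technical repeats, and the vectors were on different slides, so this separation cannot be assigned to miR-155. How often other kept probes separate in this way was not counted. The IP/T ratio of ZFP36 was 7.61 in EV cells (9.81 and 5.91 in the dye orientations) and 19.4 in miR-155 cells (20.5 and 18.4). By this ratio ZFP36 ranked 265 of the 15529 kept probes in EV cells and 33 in miR-155 cells.

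The miR-155/EV ratio of ZFP36 was 2.55, with 2.09 and 3.11 in the dye orientations, rank 61 of 15529. It was the only one of the 13 probes with a ratio of at least 2, against 1.15% of all kept probes, and it reached 2 in each orientation, against 0.67%. A ratio of 0.5 or less was found for 0 of the 13 probes, against 0.477%. On the log2 scale the ratio is made up of an IP signal higher by 0.95 (0.85 in Cy3 and 1.06 in Cy5) and a total signal that differed by -0.40 (-0.58 in Cy3 and -0.22 in Cy5). Neither fraction by itself reached a mean 2-fold difference. ZFP36 is on the list that the study drew up from these same arrays with this ratio, so its place above the threshold is no independent evidence. With normexp background correction and quantile normalization the IP/T ratio was 2.16 in EV cells and 3.62 in miR-155 cells and the miR-155/EV ratio was 1.67, below the threshold, and with normexp, loess and Aquantile the probe was not kept.

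**Figure D2:**
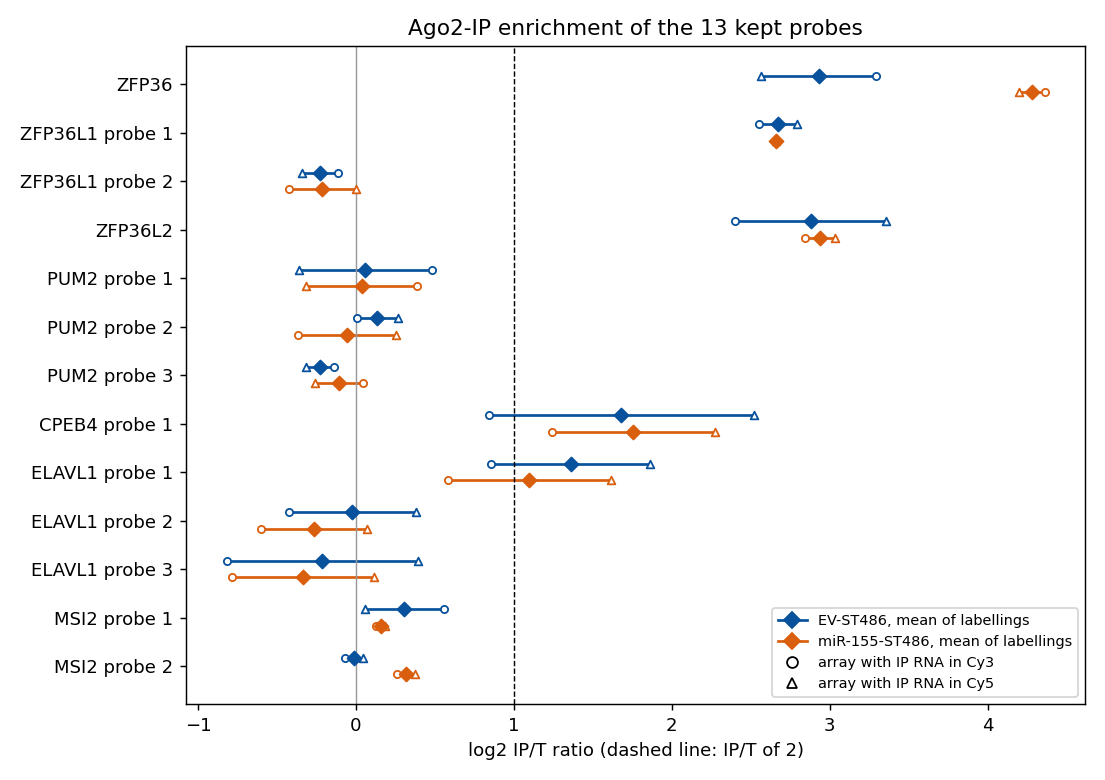
Log2 IP/T ratio of the 13 kept probes in EV cells (blue) and miR-155 cells (orange). Diamonds are means of the labellings, circles and triangles the arrays with IP RNA in Cy3 and Cy5, lines join the orientations, and the dashed line marks an IP/T ratio of 2. ZFP36 is the only probe whose ratios in the vectors stand apart by more than 2-fold, at 7.61 and 19.4.

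ZFP36L1, a relative of ZFP36 with a role in B-cell development, gave unlike ratios with its 2 probes, both assigned to NM_004926. Probe 1 (A_23_P99540) had total signals of 4525 in Cy3 and 4722 in Cy5 in EV cells and of 3869 and 3965 in miR-155 cells. Its IP signals were 27699 and 31307 in EV cells and 25061 and 24479 in miR-155 cells. All 4 IP labellings stood above all 4 total labellings, and the IP/T ratio was 6.37 (5.87 and 6.92) in EV cells and 6.32 (6.32 and 6.33) in miR-155 cells.

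Probe 2 (A_24_P99152) had total signals of 3859 and 3982 in EV cells and of 2801 and 2649.8 in miR-155 cells. Its IP signals were 3687 and 3050.4 in EV cells and 1976 and 2799.6 in miR-155 cells. Here IP and total signals lay close together, and the IP/T ratio was 0.86 in both vectors, where the dye orientations gave 0.93 and 0.79 with the empty vector against 0.75 and 1.00 with miR-155. The IP/T ratios of the ZFP36L1 probes thus differed 7.45-fold in EV cells and 7.32-fold in miR-155 cells. Among the 2150 genes with at least 2 kept probes the median of this fold was 1.40 and 1.32, and 0.558% of the genes in EV cells and 0.605% in miR-155 cells had a larger one. Where in the transcript each probe lies is not given in the sources used here. Between the vectors neither probe differed by more than its orientations did, with miR-155/EV ratios of 0.99 (1.08 and 0.91) for probe 1 and 1.01 (0.81 and 1.26) for probe 2. With normexp, loess and Aquantile the ratio of probe 1 was 1.78.

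ZFP36L2 is the third member of the family. Its probe (A_23_P101960, NM_006887) gave total signals of 4432 in Cy3 and 7228 in Cy5 in EV cells and of 4430.1 and 4999 in miR-155 cells. Its IP signals were 38145 and 45438 in EV cells and 35917 and 36176 in miR-155 cells. The IP labellings did not overlap the total labellings, and the IP/T ratio was 7.36 (5.28 and 10.3) in EV cells and 7.66 (7.18 and 8.17) in miR-155 cells. The miR-155/EV ratio of 1.04 had orientations on both sides of 1, at 1.36 and 0.80.

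In EV cells the order ZFP36, ZFP36L2, ZFP36L1 probe 1 could not be told from the orientations, since the ranges of all 3 IP/T ratios overlapped. In miR-155 cells the orientations of ZFP36 lay above those of ZFP36L2, and those of ZFP36L2 above those of ZFP36L1 probe 1. For ZFP36L1 probe 1 and ZFP36L2 an IP/T ratio of at least 2 was found in 14 of 14 alternative ways of processing in each vector. The lowest was 2.97 for ZFP36L1 probe 1 in EV cells and 4.34 in miR-155 cells, and 4.58 and 6.28 for ZFP36L2.

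CPEB4, which regulates the length of poly(A) tails in the cytoplasm, was next in order. Its probe 1 (A_23_P251937, NM_030627) gave total signals of 245 in Cy3 and 409 in Cy5 in EV cells and of 234 and 375 in miR-155 cells, with IP signals of 733 and 1403 in EV cells and of 887 and 1127 in miR-155 cells. Every IP labelling exceeded every total labelling, but Cy5 signals were higher than Cy3 signals in each of the 4 RNA samples. The IP/T ratio was 3.20 (1.79 and 5.72) in EV cells and 3.38 (2.37 and 4.83) in miR-155 cells, and the miR-155/EV ratio was 1.06 (1.32 and 0.84). The orientations of CPEB4 overlapped those of ZFP36L2 in EV cells and lay below those of the 3 enriched ZFP36 family probes in miR-155 cells. The enrichment in EV cells passed 2 with the IP RNA in Cy5 only, and over the alternatives it reached 2 in 8 of 13, with 1.06 under normexp, loess and Aquantile, where the miR-155/EV ratio was 1.62. In miR-155 cells it reached 2 in 11 of 13, and the lowest value was 1.33 with normexp and quantile normalization. Probe 2 (A_24_P58740, same transcript) was detected in 0 of the 8 channels, with signals between 12.0 and 41.7, and gives no ratio.

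CPEB2, a close relative of CPEB4, was not well above background in total RNA. Its probe 1 (A_32_P225355, NM_182485) was detected in 3 channels, both IP labellings of EV cells and the Cy3 labelling of the IP of miR-155 cells. Its IP signals were 96.8 in Cy3 and 132 in Cy5 in EV cells and 132 and 64.0 in miR-155 cells, and its total signals, between 8.80 and 12.2, were below detection. On normexp, loess and Aquantile values with high local backgrounds replaced, the mean IP level was 1.25-fold that of total RNA in EV cells. In miR-155 cells it was 1.41-fold, where 1 of the 2 IP labellings in the mean was detected. The level of total RNA was the higher of the dimmest level well above background and the probe's own level in the total channels. In both vectors this was the probe's own level, which was below detection, so the folds are not firm lower bounds. Probe 2 (A_24_P340390) was detected in 0 channels.

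ELAVL1, which mostly stabilizes AU-rich mRNAs, also gave unlike ratios with its 3 probes, all assigned to NM_001419. Probe 1 (A_32_P200165) had total signals of 446 in Cy3 and 641 in Cy5 in EV cells and of 453 and 659 in miR-155 cells, with IP signals of 1160.1 and 1624 in EV cells and of 986 and 1385 in miR-155 cells. The groups of IP and total labellings did not overlap, and as with CPEB4 the Cy5 signal was the higher one in each RNA sample. The IP/T ratio was 2.57 (1.81 and 3.64) in EV cells and 2.14 (1.497 and 3.06) in miR-155 cells, so that in both vectors the threshold was passed with the IP RNA in Cy5 only. The orientations overlapped those of CPEB4 in both vectors. With normexp, loess and Aquantile the ratio in EV cells was 1.05, and over all alternatives it reached 2 in 8 of 13 in each vector.

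Probe 2 of ELAVL1 (A_23_P208477) had total signals of 3863 and 4343 in EV cells and of 4247 and 5984 in miR-155 cells, with IP signals of 3233 and 5035 and of 3946 and 4468. Total and IP labellings overlapped in both vectors, and the IP/T ratio was 0.99 (0.74 and 1.30) in EV cells and 0.83 (0.66 and 1.05) in miR-155 cells. Probe 3 (A_23_P388681) had an IP/T ratio of 0.86 (0.57 and 1.31) and 0.79 (0.58 and 1.08). The highest and the lowest ELAVL1 ratio differed 2.97-fold in EV cells and 2.70-fold in miR-155 cells, a fold exceeded by 6.98% and 6.84% of the 2150 genes. The miR-155/EV ratios of the 3 probes were 0.83, 0.85 and 0.92, and those of probes 1 and 2 were below 1 in each orientation. For probe 1 the direction depended on the processing, since its log2 miR-155/EV ratio of -0.26 became 0.53 with normexp, loess and Aquantile, and 0.17 when high local backgrounds were replaced as well.

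PUM2, a repressor that recruits deadenylases to transcripts with Pumilio elements, was not Ago2-IP-enriched with any of its 3 probes (NM_015317). Signals over the 8 channels lay between 106 and 192 for probe 1 (A_24_P71439), between 1418.5 and 2206 for probe 2 (A_24_P2995) and between 1680.1 and 2194 for probe 3 (A_23_P5550). Total and IP signals overlapped over the 8 channels for all 3 probes. The IP/T ratios were 1.04, 1.097 and 0.85 in EV cells and 1.03, 0.96 and 0.93 in miR-155 cells, so the probes of this gene differed by at most 1.29-fold among themselves. The miR-155/EV ratios were 0.99, 0.88 and 1.09.

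MSI2, an RNA-binding regulator of translation, was read by a probe of each of 2 RefSeq transcripts, NM_138962 (probe 1, A_23_P44195) and NM_170721 (probe 2, A_23_P369479). Probe 1 gave total signals of 1895 in Cy3 and 1430.1 in Cy5 and IP signals of 2101 and 1975 in EV cells, and total signals of 1430.1 and 1530.1 and IP signals of 1673 and 1627 in miR-155 cells. The IP/T ratio came to 1.24 (1.47 and 1.04) in EV cells and 1.12 (1.09 and 1.14) in miR-155 cells. Probe 2 gave total signals of 760.5 and 959 and IP signals of 915 and 785 in EV cells, and total signals of 912 and 848 and IP signals of 1014 and 1182 in miR-155 cells. The 2 IP labellings of miR-155 cells were the highest of its 8 signals. The IP/T ratio came to 0.99 (0.95 and 1.03) in EV cells and 1.24 (1.20 and 1.30) in miR-155 cells, and its miR-155/EV ratio was 1.25 in each dye orientation. This is a small difference, at rank 2085 of the 15529 kept probes.

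LIN28B, which keeps let-7 miRNAs from maturing and is known from fetal and tumour cells, was not detected. Its probes (A_32_P224566 and A_24_P769529, NM_001004317) were well above background in 0 of the 8 channels, with signals between 9.37 and 13.8 and between 13.1 and 50.2. A level below the array's background cannot be told from absence, and no ratio is given.

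**Figure D3:**
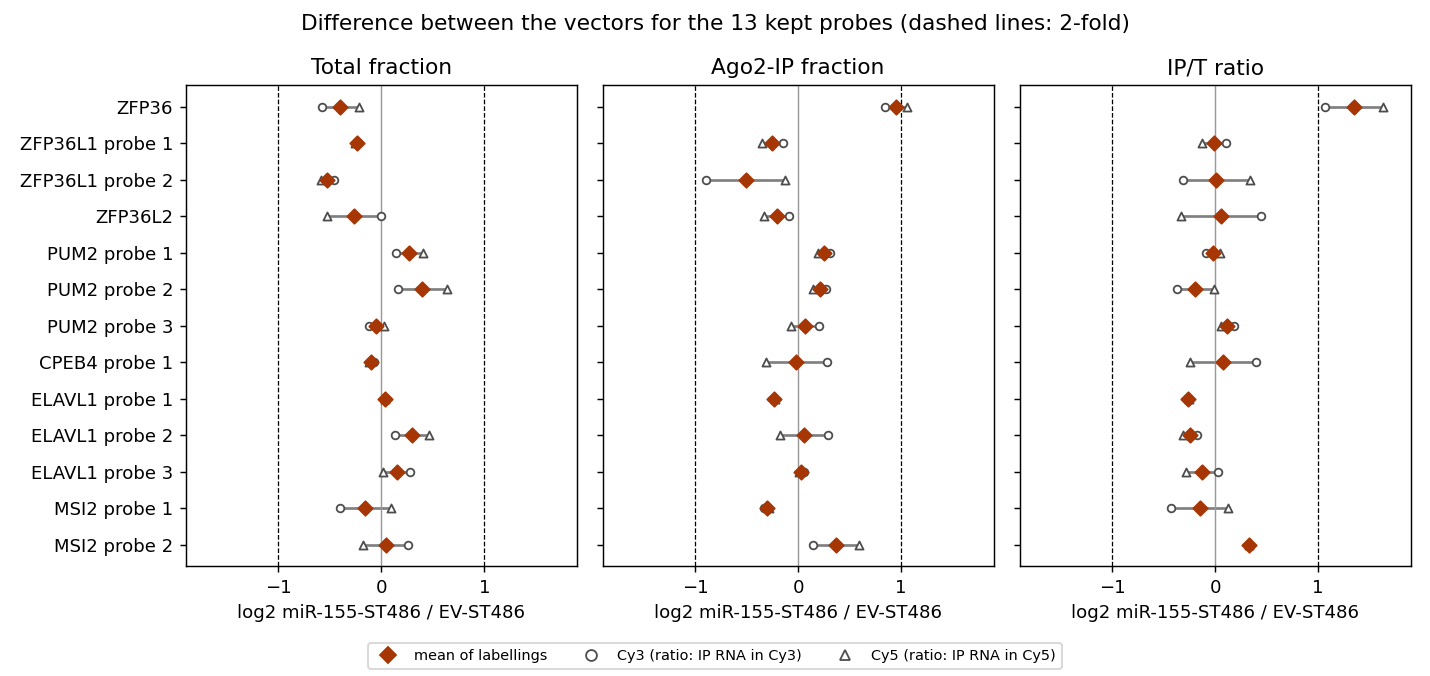
Log2 ratio of miR-155 cells over EV cells for the total signal, the Ago2-IP signal and the IP/T ratio of the 13 kept probes. Diamonds are means of the labellings, circles and triangles the single labellings (in the third panel the dye orientations), and dashed lines mark 2-fold. ZFP36 is the only probe past 2-fold in the IP/T panel, and no probe's mean passes 2-fold in the panels of the single fractions.

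In the total fraction the 13 probes differed between the vectors by log2 values from -0.53 to 0.40, with a median of -0.05 against 0.02 for all kept probes. A 2-fold higher total signal with miR-155 was found for 0 of the 13 probes (0.676% of all kept probes) and a 2-fold lower one for 0 (0.38%). In the IP fraction the differences ran from -0.51 to 0.95, with 0 probes 2-fold higher (1.28%) and 0 probes 2-fold lower (1.05%). The 4 ZFP36 family probes all had a lower total signal in miR-155 cells, by log2 differences of -0.40 for ZFP36, -0.24 and -0.53 for the ZFP36L1 probes and -0.27 for ZFP36L2. Relative to the median of all kept probes, these stayed below 0 in 11 of 11 alternatives for ZFP36 and in 12 of 12 for each of the others. This was not particular to the family. CPEB4 probe 1 stayed below 0 in 11 of 11 and PUM2 probe 3 in 12 of 12. ELAVL1 probe 2 and PUM2 probes 1 and 2 stayed above 0 in all of theirs. Alternatives with 1 dye orientation alone were not part of these counts. How many of all kept probes stay on 1 side of the median in every alternative was not counted, and vector and slide cannot be told apart. The ZFP36L2 difference came from the Cy5 labelling, at -0.53, and was -0.00052 in Cy3. The PUM2 probes 1 and 2 had a higher total signal, by 0.27 and 0.40, while PUM2 probe 3 differed by -0.05. In RNA from a cell population, fewer cells that express a gene and less of its RNA per cell cannot be told apart.

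The paralogs of the 9 genes that are not members themselves were read by 12 probes of 8 genes, of which 4 probes of 2 genes were kept. CPEB1, the founding member of the CPEB family, had an IP/T ratio of 11.2 (9.17 and 13.7) in EV cells and 7.56 (6.76 and 8.45) in miR-155 cells. Its miR-155/EV ratio of 0.67 was below 1 in each orientation, at 0.74 and 0.62.

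A list of 30 other 3′UTR-binding proteins had 39 kept probes of 23 genes, with a median log2 IP/T ratio of -0.28 in EV cells and -0.16 in miR-155 cells, against -0.15 and -0.18 for all kept probes. An IP/T ratio of at least 2 was found for 4 of these probes in EV cells and 5 in miR-155 cells, against 12.1% and 12.2% of all kept probes, and a ratio of 0.5 or less for 7 and 3, against 10% and 9.83%. The highest were IGF2BP3, an mRNA-stabilizing protein of fetal and tumour cells, at 5.80 and 5.11, and the Roquin genes RC3H2, at 3.90 and 3.54, and RC3H1, at 2.41 and 3.84, whose products bind stem-loops in the 3′UTR. The lowest were PCBP2, which binds C-rich stretches, at 0.40 and 0.43, the splicing regulator PTBP1 at 0.42 and 0.41, and FXR1, a relative of the fragile X protein, at 0.46 and 0.45.

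A list of 31 genes held partners of the 9 proteins in deadenylation, polyadenylation, decapping and uridylation. It also held the kinase MAPKAPK2 and the miRNA-processing enzymes DICER1 and DROSHA. The list had 38 kept probes of 25 genes. The median log2 IP/T ratio of this list was 0.34 in EV cells and 0.21 in miR-155 cells, and 11 and 10 probes reached a ratio of 2, where 12.1% and 12.2% of all kept probes did so. In each vector 1 probe of the list was at 0.5 or less, as were 10% and 9.83% of all kept probes. BTG2, an antiproliferative protein that activates the CCR4-NOT deadenylase, had the highest ratio of any list, 43.6 (38.5 and 49.4) in EV cells and 38.2 (32.3 and 45.1) in miR-155 cells. DICER1, which cuts miRNA precursors, followed with 8.34 and 6.01 from its probes in EV cells and 8.74 and 6.37 in miR-155 cells. The lowest were CNOT3, a CCR4-NOT subunit, at 0.51 and 0.46, the kinase MAPKAPK2, which phosphorylates ZFP36, at 0.50 and 0.54, and the deadenylase PARN at 0.65 and 0.61. Between the vectors, 0 probes of these 3 lists had IP/T ratios that were 2-fold or more higher, or 2-fold or more lower, with miR-155, against 1.15% and 0.477% of all kept probes.

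**Figure D4:**
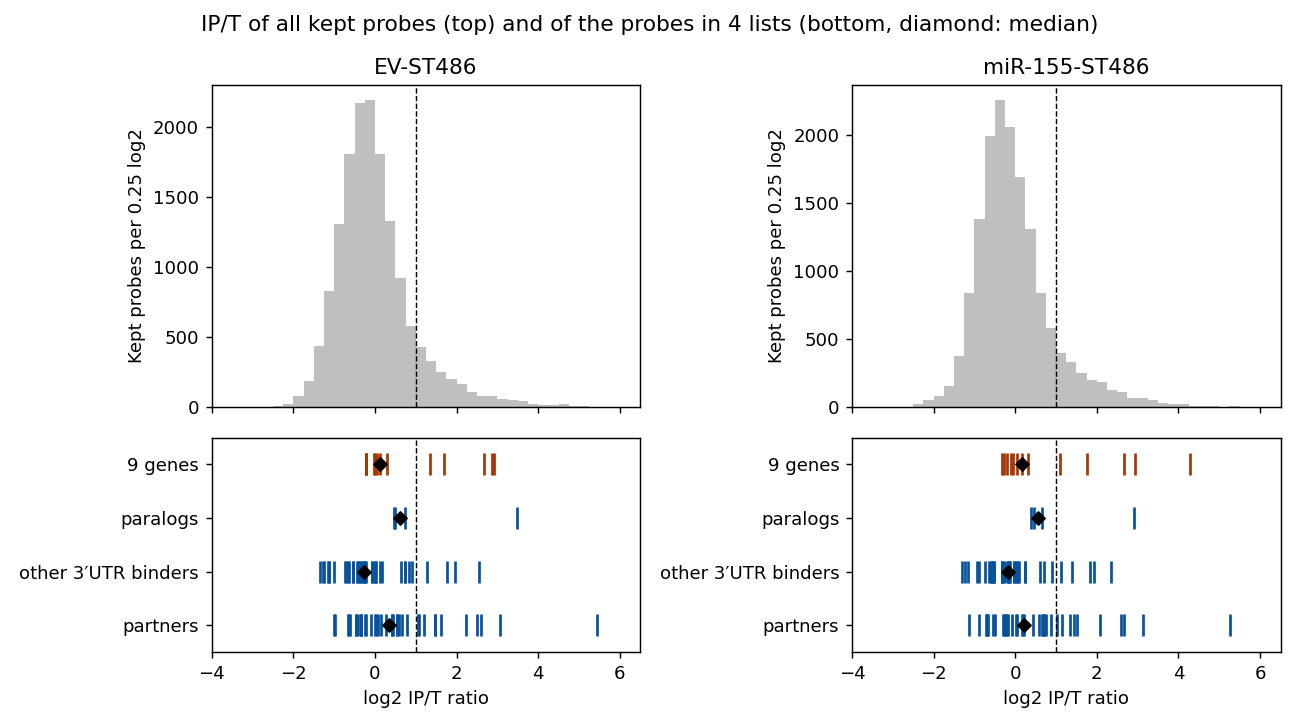
Top, number of kept probes per 0.25 log2 of the IP/T ratio for all 15529 kept probes in EV cells (left) and miR-155 cells (right). Bottom, each kept probe of the 9 genes and of the 3 lists as a tick on the same axis, with the median as a diamond and an IP/T ratio of 2 as a dashed line; the rightmost tick is BTG2, at 43.6 and 38.2.

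The probes whose pattern was most like that of ZFP36, by Euclidean distance over its 4 log2 IP/T ratios (2 vectors by 2 dye orientations), were those of TGIF1 at a distance of 0.87, BACH1 at 1.00 and TUSC2 at 1.02. For TGIF1 the orientations gave ratios of 9.54 and 5.56 with the empty vector against 13.1 and 12.4 with miR-155. BACH1 had 5.66 and 5.96 against 14.2 and 14.7, and TUSC2 had 11.5 and 8.12 against 15.6 and 10.7. Only 1 of the kept probes lay within a distance of 1, and each of the 4 values comes from its own array, while the arrays of a vector share their RNA.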

How the data were processed

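RNA of ST486 cells was measured on 4 two-colour Agilent arrays with 45015 spots each. The authors extracted the intensity values with Feature Extraction 10.5.1.1, which subtracted the background and normalized the dyes of an array against each other, per the file headers. Log2 values of 14453 probes were deposited as well, which the authors made in GeneSpring by quantile normalization and by filters on detection and on dye differences, and these served as an alternative. Both channels of an array came as separate files with the same content, of which the channel in the dye of the sample was read.

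Control spots were left out (43376 spots of 41000 probes remained), repeated spots were averaged per probe, values under 1 were raised to 1, and quantile normalization of the log2 values ran over all 8 channels. A probe counted as detected where its signal was positive, significant and well above background. Those detected in 4 or more channels, 19469 in all, were retained, and of these the 15529 within 2-fold between the labellings of each RNA sample. Of the deposited probes 14446 were among them, and 99.6% of the deposited probes had all 8 values within 0.05 log2 of those made here. Symbols came from the RefSeq accessions of the arrays, which matched 23958 probes. Without replicate RNA no p-value was computed. The quantile normalization and the IP/T ratio were tested on simulated data with planted ratios. That test did not cover the filters, the background correction, dye effects or the miR-155/EV ratio. The members and gene lists were chosen with earlier results of these data known. Named were all probes of the 9 genes, the 3 highest and 3 lowest probes of each list by mean log2 IP/T ratio, any list probe past a miR-155/EV ratio of 2 either way, and the 3 probes nearest to the member with the highest IP/T ratio, except for a gene that is not reported here.

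Alternatives were normexp (offset 50, on median signals) with quantile or loess and Aquantile normalization, with local backgrounds above 500 as given or replaced by the channel's median, no or within-fraction normalization, the deposited log2 values, other filters, arithmetic means, 1 dye orientation alone, outlier spots left out, and ratio thresholds of 1.5 and 3. Counts of alternatives for a probe include those that change only the filters, which leave its ratios unchanged. The differences in the total fraction relative to all kept probes were added after the values were seen. Normexp, loess and Aquantile were run with limma 3.58.1 in R 4.3.3, everything else with pandas 2.3.3 and numpy 2.4.6 in Python 3.11.15, and figures with matplotlib 3.10.9.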

Additional observations from a re-analysis of the deposited data

How the results depend on the processing

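The 5 enriched probes in each vector and the 1 probe past a miR-155/EV ratio of 2 were found again in number on the deposited log2 values, and with detection required in all 8 channels, no filter on detection or on dye differences, arithmetic means, outlier spots left out, and quantile normalization within fractions. Each of the 13 probes was detected in all 8 channels, and the filter settings leave their ratios unchanged, so there the counts could not fall. The deposited values were made with the same kind of normalization and filters and are close to a repeat. With normexp and quantile normalization the counts were 3 in EV cells and 3 in miR-155 cells, with 0 probes past the miR-155/EV ratio of 2 and a median log2 IP/T ratio of 0.077 in miR-155 cells, and with normexp, loess and Aquantile they were 2, 2 and 0 over 12 probes, with medians of 0.11 for the IP/T ratio in miR-155 cells and -0.036 for the total fraction. With high local backgrounds replaced, 3 probes were enriched in EV cells under either normalization, with median log2 IP/T ratios of 0.27 in EV cells and 0.17 in miR-155 cells and -0.15 for the total fraction after quantile normalization, and of 0.37, 0.29 and -0.14 after loess and Aquantile. Of all kept probes in EV cells, the share past an IP/T ratio of 2 was 2.28%, 0.767%, 6.04% and 4.93% under these 4 settings. Without normalization between arrays 9 of the 13 probes were kept, 3 were enriched in each vector, and the medians were 0.049, 0.18 and 0.32, where the total fraction of all kept probes shifted by 0.44. The median in miR-155 cells was 0.18 with quantile normalization within fractions and 0.23 without the detection filter, where the total fraction gave -0.074. A ratio threshold of 3 left 0 probes by the miR-155/EV ratio. With the arrays of 1 dye orientation left out, 3 to 5 probes were enriched in EV cells (3 with the IP RNA in Cy5 left out), and the medians lay between 0.38 and 0.48 in EV cells, between 0.25 and 0.26 in miR-155 cells and between -0.00052 and 0.020 in the total fraction. The causes of these differences were not tested. The miR-155/EV ratio of ZFP36 ran from 1.67 to 3.11 and reached 2 in 12 of the 13 alternatives that kept its probe, which normexp, loess and Aquantile with the local backgrounds as given did not. Among the 13, the alternatives that change only the filters repeat the main value and are no separate checks. Over the 13 probes, 161 of 177 alternative values of the log2 IP/T ratio in EV cells, 158 of 177 in miR-155 cells and 158 of 177 of the miR-155/EV ratio lay within the spread of the dye orientations, and 0 called values changed sign. Part of this count was fixed in advance. A value from 1 dye orientation always lies within that spread, and a change of filter alone leaves the ratios of the 13 probes unchanged. No paired analysis was possible because the labels give 1 RNA sample per condition and no replicate numbers. Signal over background limits CPEB2, LIN28B and the dim CPEB4 probe, which were below detection in most or all channels.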
